A study of Homo sapiens with 6 samples.

Results

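The replication-dependent histone genes were taken as the protein-coding rows named for the 4 histone clusters, HIST1 to HIST4, in the deposited tables. They numbered 70 of the 44591 genes listed, with 6 linker histone H1 genes, 17 H2A genes, 18 H2B genes, 14 H3 genes and 15 H4 genes. By cluster, 55 belonged to HIST1 on chromosome 6, 11 to HIST2, 3 to HIST3 and 1 to HIST4. RNA sequencing had been performed on A2780, a human ovarian cancer cell line labelled wild type, grown in DMEM with fetal bovine serum. The treated group (A2780 + r-CRMP2) received human recombinant CRMP2 protein at 40 ng/ml for 48 h, and the untreated group was taken at the same time, with 3 libraries in each. CRMP2 is a cytosolic protein best known for binding tubulin in neurons, and the study asked which pathways of the cancer cells respond to it. Nothing in the labels said that the libraries of a group came from separate cultures, so the p-values measure only the spread between these samples, which may be technical.

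Core histones H2A, H2B, H3 and H4 form the octamer around which DNA is wrapped, and H1 binds the linker DNA between nucleosomes. The replication-dependent genes are short, lack introns in their main transcript and are expressed mostly in S phase, when new DNA has to be packaged. Their mRNAs normally end in a conserved stem-loop, bound by SLBP, in place of a poly(A) tail. Some of the genes also make a longer polyadenylated transcript from a site downstream of the stem-loop. The libraries here were enriched with oligo(dT), which binds poly(A) tails, so the values measured the histone RNA that passed this step and not the whole histone mRNA pool of the cells.

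The stem-loop is shown because it is the feature that sets these mRNAs apart from those the library kit was made for. The 16-base histone stem-loop core, searched in the sense direction with its variable bases left free, was found in an annotated GENCODE v29 transcript of 31 of the 70 genes, against 0.0866% of 83129 protein-coding transcripts. In the lines that follow, capitals mark the 6 bases of each arm of the stem and lower case the 4 bases of the loop.
Core of 17 H2A, H2B and H3 genes, among them HIST2H2BE, HIST1H2AC and HIST3H2A: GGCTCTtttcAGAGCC
Core of 5 H2B and H3 genes, among them HIST1H2BC and HIST1H2BD: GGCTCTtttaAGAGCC
Core of 5 H4 genes, among them HIST1H4H: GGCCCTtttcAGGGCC
Core of 3 H4 genes, among them HIST1H4I: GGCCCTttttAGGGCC
Core of HIST1H2AG alone: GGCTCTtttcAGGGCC
All 8 H4 genes with the core had the stem GGCCCT, and none of the H2A, H2B or H3 genes did on its 5′ arm. Many annotated histone transcripts hold the coding part only, so a gene without a match was not shown to lack the stem-loop.

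Total counts were 21888530 to 25711353 per library, and replicates of a group correlated at r = 0.989 to 0.993 on the log2 scale of CPM, that is, counts normalised by TMM so that libraries of unequal depth can be compared, against 0.955 to 0.969 across groups. The library r-CRMP2 replicate 3 stood apart with 22438 genes with a count, against 25152 to 26302 in the other 5, and 3369 genes with 1 or 2 counts against 5316 to 5580. TMM factors were 1.10 to 1.12 in the untreated and 0.879 to 0.922 in the r-CRMP2 libraries, so the scaling moved with the groups. Over 16222 genes tested, the median log2 fold change stood at -0.026 after TMM scaling and fell to -0.34 when only library size was used. Of the genes called, 48.4% were higher after r-CRMP2 under TMM and 20.4% under library size alone. The epithelial keratins KRT8 and KRT18 were abundant in both groups, with mean levels of 1251 to 1435 CPM. The ovarian marker PAX8 was near 4 CPM, WT1, CDH1 and CLDN3 were at most 0.125 CPM, and of 5 leukocyte markers PTPRC, CD3E and MS4A1 were at most 0.113 CPM. CD14 was at 0.458 ± 0.135 and 0.061 ± 0.072 CPM and CD68 at 23.1 ± 2.33 and 74.3 ± 3.15 CPM in untreated and r-CRMP2 cells (SD, n = 3).

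Histone RNA was higher after r-CRMP2, and most of the difference lay in H1 and H2B. The 70 genes together took 4346, 3983 and 4306 counts without treatment and 8221, 9559 and 10370 counts with r-CRMP2. Every r-CRMP2 library lay well above every untreated one. Their share of all counts was 0.0177% ± 0.000545 (SD, n = 3) and 0.0394% ± 0.00359 (SD, n = 3), and their summed level was 158.7 ± 3.21 and 439.9 ± 50.2 CPM (SD, n = 3), a ratio of 2.77. In bulk libraries, a change in the number of cells that express a gene and a change in RNA per cell cannot be told apart.

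The summed H1 level was 34.5, 34.8 and 34.1 CPM in the untreated and 121.7, 160.9 and 139.8 CPM in the r-CRMP2 libraries, a ratio of 4.08. For H2B it was 71.3, 71.0 and 71.0 CPM against 184.8, 235.1 and 228.4 CPM, a ratio of 3.04. In both classes the groups were far apart, and the r-CRMP2 libraries varied more than the untreated ones. For H2A the sums were 31.6, 35.9 and 31.8 CPM against 52.9, 62.7 and 59.1 CPM, a ratio of 1.76. The sums of the remaining core histones were small and close together: H3 went from 8.99 ± 0.411 to 11.6 ± 0.559 CPM and H4 from 11.0 ± 1.25 to 13.2 ± 1.23 CPM (SD, n = 3 each). Scaled by library size alone, the log2 ratio of the H3 sums was 0.055 and that of the H4 sums turned to -0.048. As a share of the histone total, H1 stood at 21.7% in the untreated and 32.0% in the r-CRMP2 libraries, H2B at 44.8% and 49.1%, and H2A at 20.9% and 13.3%. H3 went from 5.67% to 2.65% of that total and H4 from 6.92% to 3.04%.

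**Figure D1:**
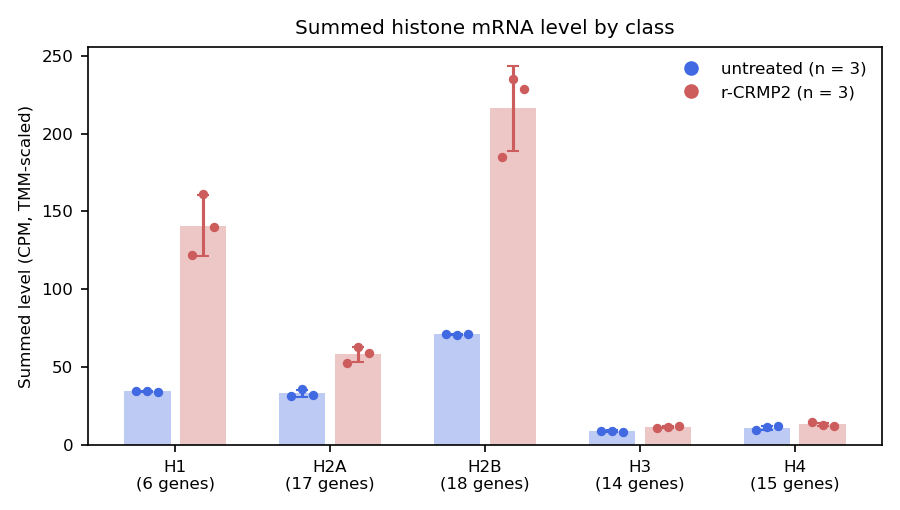
Summed level of the histone genes of each class in CPM on TMM-scaled library sizes; bars are means, error bars SD, and points the 3 untreated (blue) and 3 r-CRMP2 (red) libraries. H1 and H2B show the large differences, and the r-CRMP2 sums of H4 start at 12.2 CPM, just above the highest untreated sum of 11.9 CPM.

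Of the 70 genes, 39 passed the filter on low counts and were tested. Among these, 26 passed it in all libraries of both groups, 6 in all r-CRMP2 libraries only, 3 in all untreated libraries only, and 4 in neither complete group. Using the quasi-likelihood test of edgeR with an adjusted p under 0.05 across all genes, 21 histone genes rose (53.8%) and 2 fell (5.13%), where 28.2% of all genes tested rose and 30.1% fell. Of the risers 17 had passed the filter in every library of both groups and 4 had not, and neither faller had. With a log2 fold change past 1 in addition, 15 rose and 2 fell, where the percentages over all genes were 5.12% and 8.86%. All r-CRMP2 libraries lay above all untreated libraries for 23 members and below them for 2, where 30.9% and 33.3% of all genes tested did so. Across these 39 members the log2 fold change had a median of 0.66 and a range of -3.13 to 2.81. Scaled by library size alone, 14 of the 21 still rose, both fallers still fell, and the median was 0.36. Over all 16222 genes tested, 2171 rose and 8449 fell with that scaling, with a median of -0.34.

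By class, all but 1 of the 12 H2B genes tested rose, and 10 of them passed the fold threshold, with a median log2 fold change of 1.33. Of 3 H1 genes tested, 2 rose, and of 10 H2A genes 5 rose, with medians of 1.72 and 0.65. Of 7 H3 genes, 2 rose and 2 fell, with a median of 0.56. Among 7 H4 genes only HIST1H4I rose, and the H4 median of 0.21 became -0.10 with library size alone. No test of the difference between classes was made.

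**Figure D2:**
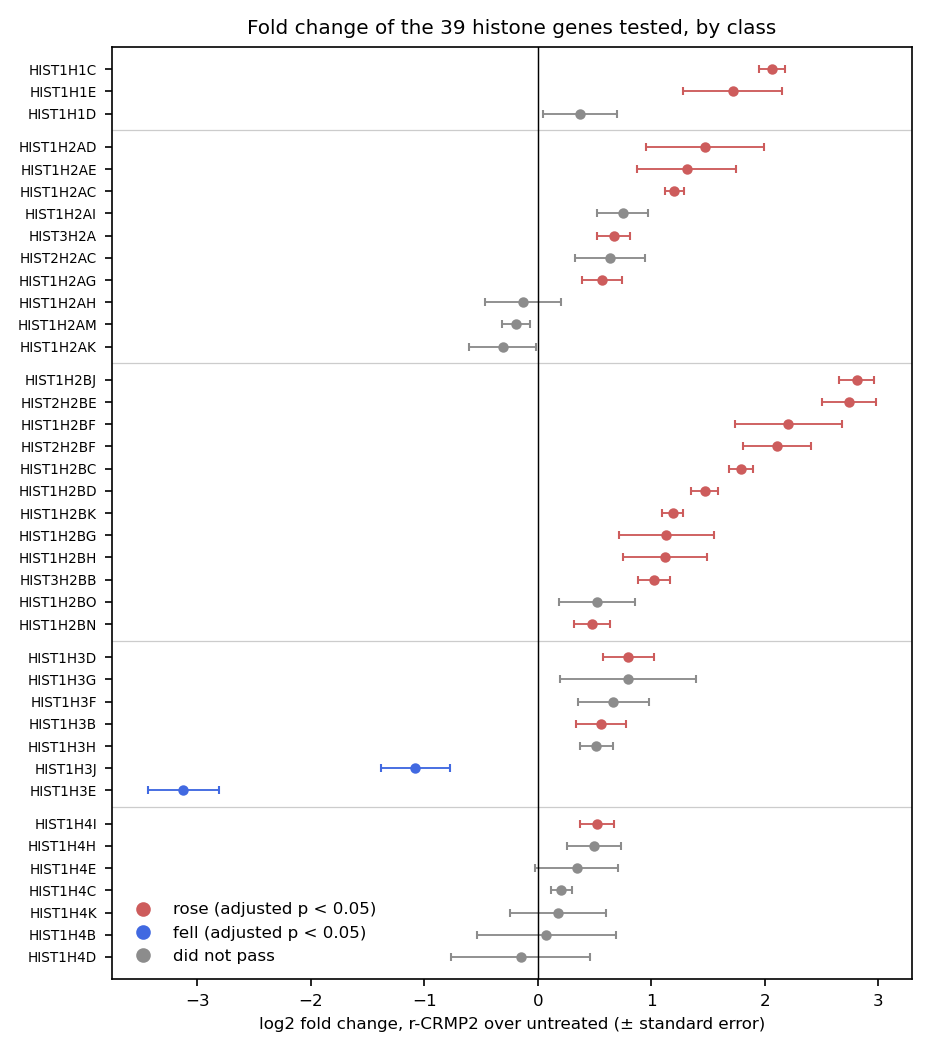
log2 fold change of r-CRMP2 over untreated for the 39 histone genes tested, grouped by class from H1 (top) to H4 (bottom); error bars are standard errors and colours show the call at an adjusted p under 0.05. The H2B block lies wholly right of 0, and the H4 block lies near 0.

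The 31 genes that were not tested were 3 H1, 7 H2A, 6 H2B, 7 H3 and 8 H4 genes, and none had more than 17 counts in any library. HIST1H2AA was at 0 in all 6 libraries, which allows up to 3 counts in each. Together these genes gave 90 to 111 counts in the untreated and 78 to 88 counts in the r-CRMP2 libraries, or 3.77 ± 0.672 and 3.94 ± 0.187 CPM (SD, n = 3). Within this sum, HIST2H2AA3 held 1 count in each untreated library and 7, 7 and 3 after r-CRMP2, and HIST1H4J held 4, 9 and 7 against 2, 2 and 1. HIST2H2AA4 held 1, 1 and 1 against 2, 1 and 2, so its groups met at 1 count and were separate only in scaled CPM. With the filter on low counts dropped, HIST2H2AA3 was called (edgeR adjusted p 0.03938), and so was HIST1H3G, which had been tested but had not passed (edgeR adjusted p 0.03326). HIST2H2AA3 and HIST2H2AA4 are near-identical copies, so their counts are uncertain.

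HIST1H1C encodes the linker histone H1.2 and lies at chr6:26055968-26056699 on the minus strand (hg19). It held 901, 804 and 902 counts without treatment and 2534, 3108 and 3105 with r-CRMP2, with no overlap. Its level went from 32.7 ± 0.291 to 137.0 ± 19.3 CPM (SD, n = 3), a log2 fold change of 2.07 ± 0.12 (SE) with an edgeR adjusted p of 6.122e-13. This gene made up 20.6% of the untreated and 31.1% of the r-CRMP2 histone total, and 37.1% of the difference between them. No 100-base stretch of its annotated transcript occurred in another gene. HIST1H1E, which encodes H1.4, held far fewer counts, 29, 22 and 10 against 44, 56 and 62, and rose by a log2 fold change of 1.72 ± 0.44 (SE). HIST1H1D had 13 to 30 counts per library in both groups together, and its groups overlapped. HIST1H1A, HIST1H1B and HIST1H1T were among the genes not tested.

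The largest fold rises were those of H2B genes. HIST1H2BJ (chr6:27100095-27100575, minus strand, hg19) gave 80, 58 and 64 counts in untreated cells and 323, 360 and 459 after r-CRMP2. Even the lowest treated library held far more than the highest untreated one. Its log2 fold change of 2.81 ± 0.15 (SE, edgeR adjusted p 1.065e-11) corresponded to 2.53 ± 0.303 and 17.8 ± 2.46 CPM (SD, n = 3). HIST2H2BE (chr1:149856010-149858232, minus strand, hg19) has a deposited length of 2223 bases, the longest of the members tested, and is one of the H2B genes known to make a polyadenylated transcript. It held 219, 203 and 289 counts against 966, 1417 and 1430, with a log2 fold change of 2.74 ± 0.24 (SE, edgeR adjusted p 8.759e-12). HIST1H2BK (chr6:27106072-27114637, minus strand, hg19) was the most abundant H2B gene, with 1130, 902 and 1045 counts against 1674, 1858 and 2099. Its log2 fold change was 1.19 ± 0.09 (SE, edgeR adjusted p 1.969e-10). It spans HIST1H4I on the opposite strand, and 28.4% of its 100-base stretches also occurred in H2BFS, so reads may have been shared between these rows.

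HIST1H2BC (chr6:26123695-26124132) held 62, 48 and 58 counts against 147, 133 and 190, a log2 fold change of 1.79 ± 0.11 (SE, edgeR adjusted p 3.277e-08). HIST1H2BD (chr6:26158349-26171577) held 245, 228 and 216 counts against 446, 492 and 602, a log2 fold change of 1.47 ± 0.12 (SE, edgeR adjusted p 1.236e-09). Neither gene's groups overlapped, and the span of HIST1H2BD takes in the row LARP1P1. HIST1H2BH (chr6:26251879-26252303) was lower and more variable, with 30, 56 and 53 counts against 67, 66 and 113 and a log2 fold change of 1.12 ± 0.37 (SE, edgeR adjusted p 0.000963). The other risers were HIST1H2BF, HIST2H2BF, HIST1H2BG, HIST3H2BB and HIST1H2BN, with log2 fold changes of 0.48 to 2.21 and mean counts of 19.8 to 110. HIST2H2BF shares its span with FCGR1A and some of its sequence with HIST2H2BE, so its counts are uncertain. HIST1H2BN lost its call without untreated replicate 2, untreated replicate 3 or r-CRMP2 replicate 1 (adjusted p 0.069 to 0.106) and with library size alone (adjusted p 0.400). HIST3H2BB lost its call without untreated replicate 1 or untreated replicate 3 (adjusted p 0.057 and 0.061) and with library size alone (adjusted p 0.072). The call of HIST1H2BG was lost with library size alone (adjusted p 0.065) and without untreated replicate 1, untreated replicate 3 or r-CRMP2 replicate 2 (adjusted p 0.062 to 0.073). HIST1H2BO was the H2B gene that did not pass, with 30, 48 and 49 counts against 40, 38 and 70 and overlapping groups.

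**Figure D3:**
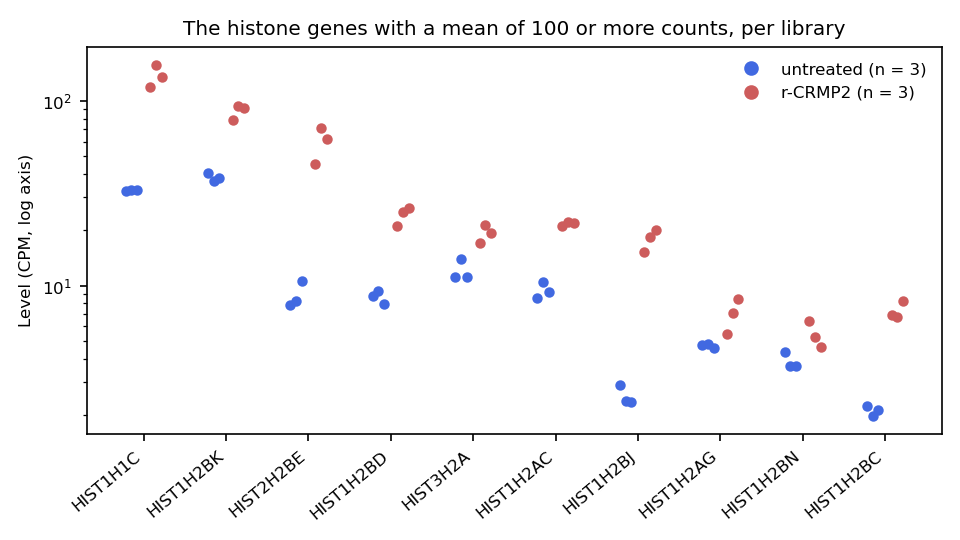
Level in each library, in CPM on a log axis, of the 10 histone genes with a mean of at least 100 counts over both groups. Blue points are untreated and red points r-CRMP2 libraries. The groups do not overlap for any of the 10, and the gap is widest for HIST1H2BJ and HIST2H2BE.

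Of the H2A genes, HIST3H2A (chr1:228645065-228645560) had the most counts over the 6 libraries, with 309, 342 and 304 against 361, 421 and 443, while HIST1H2AC had more in each r-CRMP2 library. It rose by a log2 fold change of 0.67 ± 0.14 (SE, edgeR adjusted p 4.612e-05). HIST1H2AC (chr6:26124373-26124918) went from 239, 258 and 252 to 450, 439 and 503 counts, a log2 fold change of 1.20 ± 0.09 (SE, edgeR adjusted p 7.199e-09). HIST1H2AE (chr6:26217148-26217711) held 39, 16 and 48 against 58, 80 and 66 counts and rose by a log2 fold change of 1.31 ± 0.44 (SE, edgeR adjusted p 0.0006214). These 3 genes had separate groups. HIST1H2AD (chr6:26199012-26199521) had the largest H2A fold change, 1.47 ± 0.52 (SE, edgeR adjusted p 0.00547), but its counts of 20, 10 and 9 against 14, 37 and 36 overlapped. It lies within HIST1H3D on the same strand, so reads there cannot be told apart between them. Of the 100-base stretches, 97.6% of those of HIST1H2AD and 100% of those of HIST1H3D also occurred in AL031777.3, so both counts are uncertain. HIST1H2AG held 117 to 193 counts in the r-CRMP2 libraries and rose by 0.56 ± 0.18 (log2, SE); without r-CRMP2 replicate 3, the library with fewer genes detected, its adjusted p was 0.055, and with library size alone it stood at 0.25 (adjusted p 0.174). HIST1H2AI, HIST2H2AC, HIST1H2AH, HIST1H2AM and HIST1H2AK did not pass, with log2 fold changes of -0.31 to 0.75 and mean counts of 9.83 to 42.3.

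Of the H3 genes tested, 28.6% rose and 28.6% fell, near the 28.2% and 30.1% of all genes. With library size alone none rose and 2 of 7 fell, where 2171 and 8449 of all 16222 genes tested did so. HIST1H3D (chr6:26197012-26199521), the H3 gene with the most counts over the 6 libraries, held 58, 39 and 60 counts against 56, 76 and 87, and rose by a log2 fold change of 0.80 ± 0.22 (SE, edgeR adjusted p 0.004373), with the overlap with HIST1H2AD and the sequence shared with AL031777.3 given above. With library size alone its adjusted p was 0.059. Per base, in TPM, HIST1H3B was higher than HIST1H3D in both groups, at 10.2 against 5.17 in untreated and 12.1 against 7.18 in r-CRMP2 cells. HIST1H3B rose by 0.56 ± 0.22 (log2, SE) and lost its call in DESeq2 (adjusted p 0.057) and with library size alone (adjusted p 0.353), as well as without untreated replicate 2, untreated replicate 3 or r-CRMP2 replicate 1 (adjusted p 0.067 to 0.186).

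HIST1H3E (chr6:26225383-26225844, plus strand, hg19) fell, from 16, 23 and 29 counts to 2, 1 and 3. The 68 counts of the untreated group stood against 6, a CPM ratio of 9.11 with an exact 95% interval of 3.98 to 25.7 that covers counting error only. Its log2 fold change was -3.13 ± 0.31 (SE, edgeR adjusted p 7.536e-05). The fold change and the SE, which was taken with a prior count of 2, both depend on how such low counts are smoothed. HIST1H3J fell by a log2 fold change of -1.08 ± 0.31 (SE, edgeR adjusted p 0.02431), with 21, 24 and 32 counts against 7, 13 and 9, and lost its call in DESeq2 (adjusted p 0.055). Leaving out untreated replicate 2, untreated replicate 3, r-CRMP2 replicate 1 or r-CRMP2 replicate 3 also ended that call (adjusted p 0.060 to 0.111). Both fallers had a mean count under 20. HIST1H3B, HIST1H3D, HIST1H3E and HIST1H3J encode the same protein, shared by 10 of the H3 genes here.

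HIST1H4I (chr6:27107088-27107457) was the most abundant H4 gene and the H4 gene that rose, with 68, 82 and 92 counts against 95, 84 and 101. The log2 fold change was 0.52 ± 0.15 (SE, edgeR adjusted p 0.01821). It was 0.21 (adjusted p 0.326) with library size alone and 0.38 (adjusted p 0.089) without untreated replicate 1. It lies inside the span of HIST1H2BK on the other strand. HIST1H4C, the H4 gene with the next highest counts, held 77, 62 and 61 against 62, 56 and 68 counts and had a log2 fold change of 0.21 ± 0.09 (SE, edgeR adjusted p 0.381). The other 5 H4 genes tested had log2 fold changes of -0.15 to 0.49 and mean counts of 10.0 to 39.3. In all, 14 H4 genes encode the same protein.

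The rise was concentrated in few genes. HIST1H1C, HIST2H2BE and HIST1H2BK made up 72.7% of the difference in summed histone CPM. The 8 members with the most counts over both groups, a choice that takes in the r-CRMP2 values, went from 117.6 ± 1.03 to 374.2 ± 48.2 CPM (SD, n = 3). The remaining members went from 41.1 ± 2.23 to 65.7 ± 2.15 CPM (SD, n = 3), a ratio of 1.60. Per base of transcript, in the deposited TPM, which divides counts by gene length, the order of the means in untreated cells was HIST1H1C at 108.9, HIST1H2BK at 105.8, HIST3H2A at 59.3 and HIST1H2AC at 42.2, with HIST1H2BJ at 12.8 and HIST2H2BE at 9.77. After r-CRMP2 the means were 362.4 for HIST1H1C, 192.2 for HIST1H2BK, 77.3 for HIST1H2AC, 74.9 for HIST3H2A, 71.7 for HIST1H2BJ and 51.9 for HIST2H2BE.

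All 10 members with a mean of at least 100 counts rose, where 34.7% of all genes at that count did. That mean takes in the r-CRMP2 libraries, so a rise can itself bring a gene into this set. HIST1H2BJ held 58 to 80 and HIST1H2BC 48 to 62 counts in the untreated libraries. Of the 29 members under 100 counts, 11 rose (37.9%), against 13.0% of all genes under 100 counts. The median of the mean counts was 85.3 for the H2B genes tested, 33.0 for H2A, 30.5 for H3 and 29.7 for H4. The deposited length was above 600 bases for 5 of the core histone genes tested, and all 5 rose, with a median log2 fold change of 1.47. Of these, HIST1H2BD, HIST1H2BK, HIST1H3D and HIST2H2BF overlap other rows, as given above. Of the 31 core histone genes with up to 600 bases, 14 rose and 2 fell, with a median of 0.56. The median of the mean counts was also higher for longer members, at 32.5 for the 31 members tested of up to 600 bases. It was 217.1 for the 6 from there to 1000 bases, which take in the 3 H1 genes tested. It was 390.8 for the 2 above, HIST2H2BE at 754 and HIST2H2BF at only 27.7. Among core histone genes tested, 15 had a transcript running over 200 bases past the stem-loop core, and 11 of them rose (median 0.80). The core lay within 200 bases of the end in 5, and 3 of them rose (median 1.31). No annotated transcript held the core in 16, and 5 of them rose (median 0.36). Beside these counts by length and stem-loop, 28.2% of all genes tested rose and 30.1% fell, and the 5 of 16 lay near the share that rose. The part of length, counts and stem-loop in the calls was not tested.

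H2A and H2B genes often lie head to head, sharing the DNA between their starts. The deposited coordinates held 12 such pairs, with 224 to 347 bases between the starts, and both genes were tested in 9 pairs. The H2B gene had the higher log2 fold change in 8 of the 9. Both genes rose in 5 pairs, and in 3 pairs the H2B gene rose and the H2A gene did not pass. In 1 of these 3, HIST1H2BN with HIST1H2AK, all 100-base stretches of the HIST1H2AK transcript also occurred in an annotated transcript of HIST1H2BN, so the counts of these partners are uncertain. The count ratio of the partners in the same library needs no scaling between libraries. For HIST1H2BJ over HIST1H2AG it was 0.606, 0.487 and 0.508 in untreated cells and 2.76, 2.57 and 2.38 after r-CRMP2. The more abundant partner changed from H2A to H2B in this pair. For HIST2H2BE over HIST2H2AC the ratio was 13.7, 15.6 and 14.4 against 69.0, 52.5 and 71.5. For HIST1H2BC over HIST1H2AC it was 0.259, 0.186 and 0.230 against 0.327, 0.303 and 0.378. The r-CRMP2 ratios lay above the untreated ratios without overlap in 7 of the 9 pairs, each with a two-sided exact permutation p of 0.1, the smallest that 3 against 3 libraries can give. No share over other gene pairs was taken beside this count. Among single genes tested, 30.9% lay wholly above and 33.3% wholly below in r-CRMP2. HIST1H2AH, the partner of HIST1H2BK in 1 of the 7 pairs, held only 7 to 14 counts per library. In another, HIST1H2BO with HIST1H2AM, 84% of the 100-base stretches of HIST1H2AM also occurred in HIST1H3J, so its counts are uncertain. HIST1H2BG over HIST1H2AE and HIST1H2BF over HIST1H2AD overlapped.

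**Figure D4:**
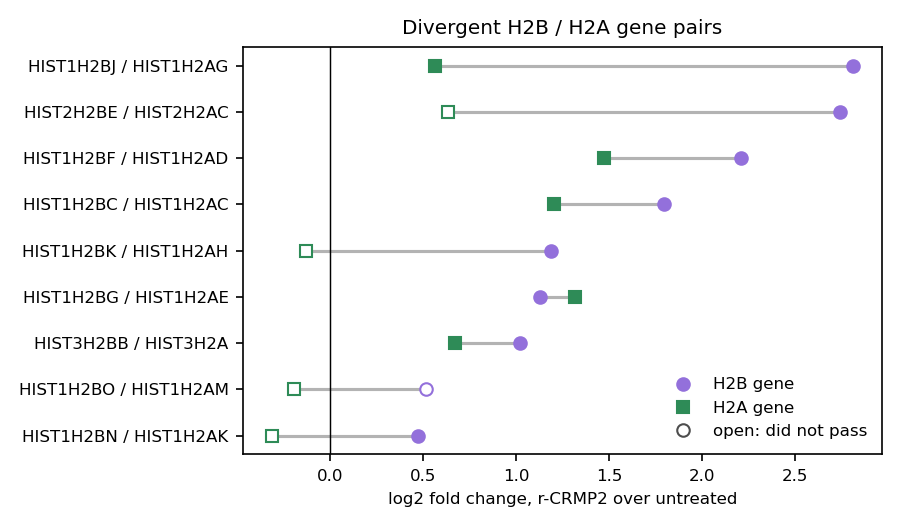
log2 fold change of the H2B gene (circle) and the H2A gene (square) in each of the 9 head-to-head pairs with both genes tested; filled symbols rose at an adjusted p under 0.05 and open symbols did not pass. The H2B symbol lies to the right in all pairs but HIST1H2BG with HIST1H2AE.

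Promoters are shown for HIST1H1C, for HIST1H3E and for 3 H2B genes described above, a choice made after their values were seen, to set the letters of H2B genes that rose beside those of an H1 gene that rose and an H3 gene that fell. RefSeq promoter sequences (GRCh38.p14) were matched for 60 of the 70 genes. Each line gives the 150 bases before the annotated start in the sense of the gene, with CCAAT boxes on either strand, the TATA forms (TATAAA or else TATATA, which can overlap each other) and the octamer (ATTTGCAT) in capitals.
HIST1H1C, chr6:26056471-26056620, minus strand: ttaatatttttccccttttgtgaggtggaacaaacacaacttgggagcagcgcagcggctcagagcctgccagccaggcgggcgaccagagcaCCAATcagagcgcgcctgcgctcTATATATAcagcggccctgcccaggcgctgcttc
HIST2H2BE, chr1:149886683-149886832, minus strand: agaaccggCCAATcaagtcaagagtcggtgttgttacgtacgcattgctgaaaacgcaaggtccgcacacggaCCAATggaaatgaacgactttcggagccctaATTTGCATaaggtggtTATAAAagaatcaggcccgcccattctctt
HIST1H2BJ, chr6:27132796-27132945, minus strand: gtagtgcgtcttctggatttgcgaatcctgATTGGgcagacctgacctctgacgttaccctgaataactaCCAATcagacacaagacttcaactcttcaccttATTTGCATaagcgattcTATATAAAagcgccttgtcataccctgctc
HIST1H2BK, chr6:27146856-27147005, minus strand: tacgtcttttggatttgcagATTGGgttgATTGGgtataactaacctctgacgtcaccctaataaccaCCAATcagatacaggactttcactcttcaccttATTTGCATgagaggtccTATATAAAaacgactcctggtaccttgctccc
HIST1H3E, chr6:26224985-26225134, plus strand: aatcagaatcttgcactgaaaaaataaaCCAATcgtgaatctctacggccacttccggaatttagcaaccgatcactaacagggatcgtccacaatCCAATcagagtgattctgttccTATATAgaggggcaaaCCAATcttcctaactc
All 3 H2B promoters held the octamer followed by a TATA element, and the HIST1H1C and HIST1H3E windows held CCAAT and TATATA without the octamer. Within 250 bases before the start, on either strand, the octamer occurred in 9 of 13 H2B (69.2%) and 11 of 16 H2A promoters (68.8%), in none of the H1, H3 or H4 promoters matched, and in 1.63% of all 35116 promoters. CCAAT occurred in every H1, H2A, H2B and H3 promoter matched, in 23.1% of the H4 promoters and in 32.0% of all promoters. TATAAA occurred in 66.7% of the members' promoters and 10.7% of all. A match describes the letters only.

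The replication-independent histone genes, expressed also outside S phase and mostly as polyadenylated mRNAs, gave a comparison within the same libraries. Of 10 such genes tested, 7 rose (70%) and none fell, with a median log2 fold change of 0.33. Over all genes tested, 28.2% rose and 30.1% fell. H1F0, the linker histone H1.0 of resting and differentiated cells, went from 170.4 ± 19.1 to 629.5 ± 94.9 CPM (SD, n = 3), a log2 fold change of 1.89 ± 0.16 (SE, edgeR adjusted p 8.759e-12). H2AFX, the H2A.X variant marked at DNA breaks, rose by 0.41 ± 0.08 and H3F3B, which encodes H3.3, by 0.43 ± 0.09 (log2, SE). H3F3A, the other H3.3 gene, rose by 0.26 ± 0.07 (log2, SE) with TMM but stood at -0.056 with library size alone. H2AFZ, which encodes H2A.Z, had a log2 fold change of 0.02 ± 0.06 (SE, edgeR adjusted p 0.790), and -0.29 with library size alone. With that scaling 3 of these variants rose and 3 fell, and H2AFX (0.10) and H3F3B (0.12) did not pass. Over all 16222 genes tested, 2171 rose and 8449 fell with library size alone.

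Of 24 genes for histone mRNA 3′ end processing and turnover, 4 rose and 8 fell, with a median log2 fold change of -0.09, and with library size alone 1 rose and 19 fell, with a median of -0.40. The shares with TMM, 16.7% and 33.3%, stood beside 28.2% and 30.1% of all genes tested. With library size alone, 2171 of all 16222 genes rose and 8449 fell. SLBP, which binds the stem-loop, rose by 0.42 ± 0.05 (log2, SE, edgeR adjusted p 1.21e-05), and by library size alone it stood at 0.11 (adjusted p 0.125). LSM11, a subunit of the U7 snRNP that directs the cut after the stem-loop, had the largest rise, 0.79 ± 0.06, and ZNF473, which also belongs to this machinery, the largest fall, -1.02 ± 0.17 (log2, SE). NPAT, the coactivator of replication-dependent histone genes, fell from 33.5 ± 2.82 to 19.3 ± 3.99 CPM (SD, n = 3), a log2 fold change of -0.79 ± 0.19 (SE, edgeR adjusted p 7.021e-06).

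Of 15 genes for cleavage and polyadenylation, 4 rose (26.7%) and 10 fell (66.7%), with a median of -0.51. With library size alone 1 rose and 11 fell. Over all genes tested, 28.2% rose and 30.1% fell with TMM, and 2171 and 8449 of 16222 did so with library size alone. RBBP6 fell most, by 0.97 on the log2 scale, and PABPN1, the nuclear poly(A)-binding protein, rose most, by 0.48. Histone chaperones and import factors gave 7 that rose and 12 that fell of 22, from HIRA at -1.30, a chaperone of H3.3, to NAP1L1 at 0.53, a chaperone of H2A and H2B. These were 31.8% and 54.5% of the list, and with library size alone 1 rose and 14 fell. Among 25 S phase genes 9 rose (36%) and 5 fell (20%), with a median of 0.09, and with library size alone 3 rose and 17 fell. RRM2, the small subunit of ribonucleotide reductase, had the largest rise, 1.08 ± 0.10, and POLA1, the catalytic subunit of DNA polymerase alpha, the largest fall, -0.51 ± 0.07 (log2, SE).

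**Figure D5:**
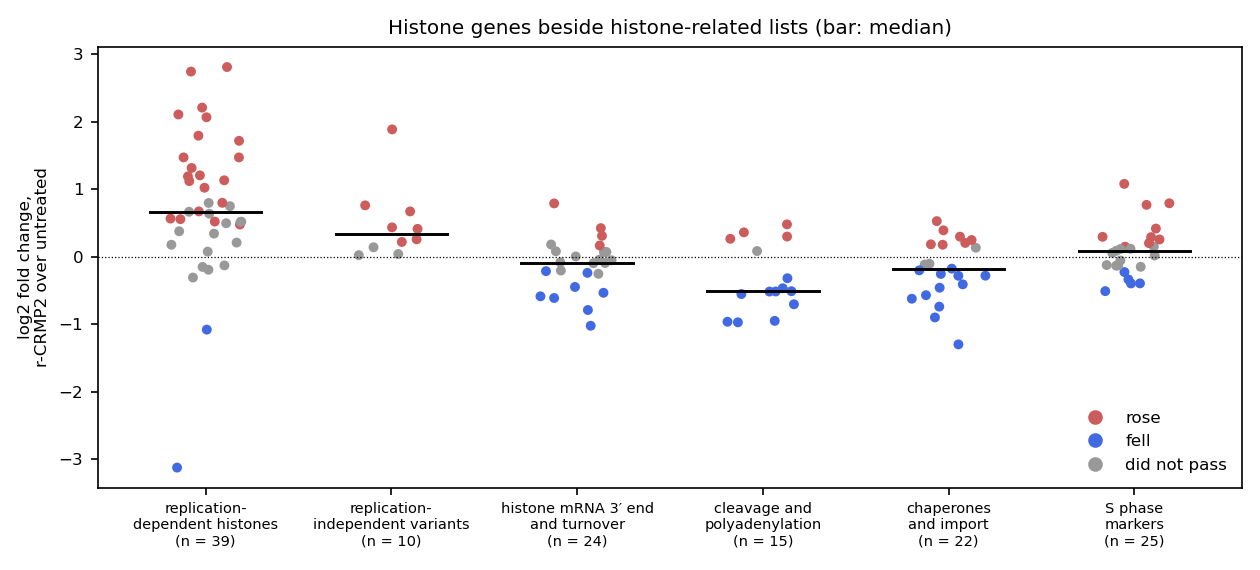
log2 fold change of r-CRMP2 over untreated for the 39 replication-dependent histone genes tested and for 5 lists of related genes; each point is a gene, coloured by its call at an adjusted p under 0.05, and the bar is the median. The histone genes spread widest, with a median of 0.66, and the cleavage and polyadenylation list lies lowest, at -0.51.

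RNAs that carry no poly(A) tail were measured beside the histone genes. Of 12 such RNAs, 6 were tested, 2 rose (33.3%) and none fell, where 28.2% of all genes tested rose and 30.1% fell. RNU7-1, the U7 RNA, was at 0 in every library. RN7SK rose by 1.02 ± 0.35 and RPPH1 by 0.84 ± 0.23 (log2, SE), while RN7SL1 and RN7SL2 had log2 fold changes of 0.27 and 0.12. The summed level of the 12 was 241.8 to 506.2 CPM in the untreated and 414.5 to 486.0 CPM in the r-CRMP2 libraries, so the groups overlapped. The overlap rested on untreated replicate 2, where RN7SL1 stood at 232.7 CPM, against 80.0 and 85.0 CPM in untreated replicates 1 and 3. The sums therefore do not show that such RNAs were alike in the groups. Among 4 long noncoding RNAs checked, KCNQ1OT1 had the largest rise, 1.70, NEAT1 rose by 1.53 and MALAT1 by 1.08, and TUG1 stood at -0.04 (log2). The part of poly(A) selection in the histone values was not tested.

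Markers of other cell types were counted in the same libraries. Over all genes tested, 28.2% rose and 30.1% fell with TMM, and 2171 and 8449 of 16222 did so with library size alone. Of 9 fibroblast markers tested, 4 rose (44.4%) and 2 fell (22.2%), and with library size alone 0 rose and 3 fell. The summed level of the fibroblast list was 590.0 to 661.1 CPM in the untreated and 522.2 to 545.1 CPM in the r-CRMP2 libraries. COL1A1 made up most of it. The endothelial sum was 6.48 to 7.06 against 1.82 to 2.35 CPM. The leukocyte sum was 21.7 to 26.2 against 72.0 to 78.1 CPM, nearly all of it CD68, a lysosomal protein that is not restricted to leukocytes. Of 8 ovarian epithelial markers tested, 2 rose (25%) and 2 fell (25%), and with library size alone 0 rose and 4 fell. The part of these differences in the histone values was not tested.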

How the data were processed

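RNA from 6 A2780 samples was enriched with oligo(dT), fragmented and sequenced. Per the labels, FastQC, HISAT2 and DESeq2 were used with the hg19 genome; the counting program, gene annotation, use of strand and handling of multiply mapped reads are not given in the sources used here. The authors deposited 1 table per sample with raw counts and TPM (length-scaled abundance) per gene.

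Samples were grouped by their titles. Members and lists were chosen with earlier results of these data known. Counts were tested with edgeR 4.0.16 (limma 3.58.1, R 4.3.3), using filterByExpr, TMM scaling and the quasi-likelihood test, r-CRMP2 against untreated, with Benjamini-Hochberg adjustment over 16222 genes. Standard errors came from the spread of log2 CPM with a prior count of 2. CPM were taken on TMM-scaled library sizes. Pair ratios were compared by exact permutation test. Depth was 21888530 to 25711353 counts. Named members were those of highest mean CPM and the most changed of each class, and any further member with a mean of at least 50 counts past both thresholds; HIST1H1E, HIST1H1D, HIST1H2AG, HIST1H2BG, HIST1H2BO, HIST1H3B, HIST1H3J and HIST1H4C, and the other members and list genes given values, were added after their values were seen. Alternatives were DESeq2 1.42.0, other scalings, filters, a replicate block and leaving out libraries. Stem-loops and shared sequence came from GENCODE v29, promoters from RefSeq, both GRCh38; gene coordinates are the deposited ones, and no coordinates were converted. The test was checked on simulated data with as many rises as falls. That simulation held no scaling that moves with the groups, so it does not cover this feature of the libraries. Replicates differed by more than sampling noise (chi-square per degree of freedom 3.62 to 10.3).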

Additional observations from a re-analysis of the deposited data

Results flagged for a closer look

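HIST2H2BC, a histone row typed as a miscellaneous RNA and so outside the 70 protein-coding genes, had 55, 29 and 43 counts in the untreated and 65, 61 and 60 in the r-CRMP2 libraries. Its level was 1.58 ± 0.398 and 2.91 ± 0.26 CPM (SD, n = 3), with every r-CRMP2 library above every untreated one. The comparisons did not use the 8 histone rows of another gene type. HIST2H2BC was picked from them for this separation at a mean of at least 10 counts, so the separation was fixed by the choice. HIST2H2BD, another such row, held 24, 22 and 18 counts against 16, 39 and 55 and overlapped. HIST2H3PS2 held 8, 6 and 9 against 4, 4 and 6 and also overlapped.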

How the results depend on the processing

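The 21 histone genes that rose became 14 to 23 under the other settings and 17 to 20 when each library was left out in turn, and the 2 that fell became 1 to 3 on leaving out a library, with a median log2 fold change of 0.60 to 0.68. DESeq2 gave 20 that rose and 1 that fell. Library size alone gave 2171 genes up and 8449 down, a histone median of 0.36, log2 ratios of the class sums of 1.72 (H1), 0.50 (H2A), 1.29 (H2B), 0.055 (H3) and 1.16 (all), and reversed H4 (sum -0.048, median -0.10), H2AFZ (-0.29) and H3F3A (-0.056). That scaling left 7 risers uncalled: HIST1H2AG, HIST1H2BG, HIST1H2BN, HIST1H3B, HIST1H3D, HIST1H4I and HIST3H2BB. Without a low-count filter the median was 0.51. With at least 10 counts in every sample 18 rose and 0 fell, since neither faller was tested. The fold threshold left 831 and 1437 of all genes. With 1 member per encoded protein 0 fell and the median was 1.15. H2AFZ ran from -0.031 (without r-CRMP2 replicate 2) to 0.077 on leaving out a library. In alternatives chosen after seeing the data, 11 rose among members with no shared stretch or overlapping row, 0 fell and the median was 0.80 among members with a mean count of at least 20, and 19 rose without the 2 members with the largest CPM rise. The replicate block gave 21 that rose and 2 that fell, a median of 0.67, and the same 21 risers; deviations of equally numbered libraries correlated at -0.0209, 0.0038 and -0.0252, so the numbers were not taken as pairs. The filter on low counts left 31 members untested.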
